A study of Arabidopsis thaliana with 8 samples.

Results

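URI (bHLH121) peaks were examined at 4 genes of coumarin secretion, a root response to low iron (Fe) in Arabidopsis thaliana, namely the regulator genes MYB72 and MYB10, the enzyme gene AT3G13610 and the exporter gene PDR9. The members were the peaks of the authors' deposited table that overlapped one of these genes widened by 1500 bp on either side. Each gene had 1 such peak, so the members were 4 of the 2366 peaks in the authors' deposited table. All libraries were made by chromatin immunoprecipitation and sequencing (ChIP-seq) from roots of a complemented uri mutant line, after 72 h of Fe sufficiency or Fe deficiency. Either condition had 3 URI libraries and 1 library with IgG as the control. The sources used here do not give the promoter of the URI transgene, a tag, the antibody or the age of the plants. They also leave unsaid whether replicate libraries were grown apart, so a p-value may measure technical spread alone. IgG signal at these peaks was not analysed here.

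Coumarins are phenolic compounds that roots release into the soil, where catechol coumarins mobilise poorly soluble ferric Fe. They are made from feruloyl-CoA, a product of the general phenylpropanoid pathway, and the ABC transporter PDR9 (ABCG37) exports them from root cells. MYB72 and MYB10 are closely related R2R3-MYB transcription factors that act in the Fe-deficiency response of roots. URI belongs to the basic helix-loop-helix family of transcription factors and acts upstream in the same response. The question for these genes was whether URI signal at the regulator genes differed between Fe conditions in the same way as URI signal at the enzyme and exporter genes.

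URI signal lay near all 4 genes, but not in the same arrangement at each. The MYB72 (AT1G56160) peak of the authors' deposited table (TAIR10, chromosome 1, 21019703 to 21021059, 1356 bp wide) overlapped no protein-coding gene and lay in the space between MYB72 and SAUR71 (AT1G56150). Its near edge was more than 1000 bp from MYB72 and its midpoint more than 1500 bp, although MYB72 was the gene nearest to that midpoint. The MYB10 (AT3G12820) peak of the authors' deposited table (chromosome 3, 4075334 to 4077097, 1763 bp) overlapped one end of MYB10 and reached into the space towards SAUR72 (AT3G12830). Thus the next gene beyond each regulator peak, on the side away from the MYB gene, belonged to the SAUR (small auxin upregulated) family, although SAUR71 and SAUR72 were both more than 1500 bp from the peak. PIE1 (AT3G12810), on the other side of MYB10, was within 1500 bp of the MYB10 peak. The PDR9 (AT3G53480) peak of the authors' deposited table (chromosome 3, 19824551 to 19825497, 946 bp) overlapped one end of PDR9, on the side of AT3G53470. The peak given for AT3G13610, the gene of feruloyl-CoA hydroxylase F6'H1, covered 413 bp in the authors' deposited table (chromosome 3, 4447612 to 4448025). It overlapped the neighbouring gene AT3G13600 rather than AT3G13610, and its midpoint was nearest to AT3G13600. Strand is not part of the gene table, so it was not determined which end of a gene each peak faced. A peak within 1500 bp was found for 3246 of 27444 protein-coding genes (11.8%), and 38.9% of all peaks overlapped no protein-coding gene.

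Both regulator peaks were wide and the enzyme peak was narrow. Of the 2366 peaks of the authors' deposited table, 105 were wider than that of MYB10 and 274 wider than that of MYB72, while 106 were narrower than that of AT3G13610. Wider peaks hold more reads, so levels of different genes are compared below per kb of peak.

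With sufficient Fe, the regulators carried little URI signal for the width of their peaks. The authors' deposited table gives 1 mean per Fe condition, as the log2 of normalised reads, and no value per library, so levels have no spread of their own and neighbours in their order could not be tested. Converted to a linear scale, the mean signal with sufficient Fe was 4.93 reads per kb at MYB72 and 5.95 at MYB10. At the enzyme and exporter genes it was 20.3 reads per kb at AT3G13610 and 19.8 at PDR9. Only 12 of the 2366 peaks had fewer reads per kb with sufficient Fe than MYB72, and only 25 had fewer than MYB10. AT3G13610 and PDR9 were close to the median peak, which had 19.4 reads per kb. In reads per peak, 160 peaks were lower than MYB72 and 629 lower than MYB10, which at 10.5 reads was above AT3G13610 (8.40). Pooling for peak calling is not given. A region weak with sufficient Fe could have entered the table, with its width, through the deficient libraries, so these ranks are description only.

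Under Fe deficiency the order of the levels per kb was turned round, with MYB72 the highest of the 4. Signal then reached 34.1 reads per kb at MYB72 and 16.7 at MYB10, against 16.5 at PDR9 and 13.1 at AT3G13610, while the median peak had 13.9. Per kb, MYB72 then exceeded 2314 of the 2366 peaks and MYB10 exceeded 1827. The levels of MYB10 and PDR9 per kb were almost equal under deficiency, whereas with sufficient Fe MYB10 had been below PDR9. In reads per peak, which go with width, the order went from PDR9, MYB10, AT3G13610 and MYB72 to MYB72, MYB10, PDR9 and AT3G13610, and under deficiency MYB10 (29.4 reads) was above PDR9 (15.6).

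**Figure D1:**
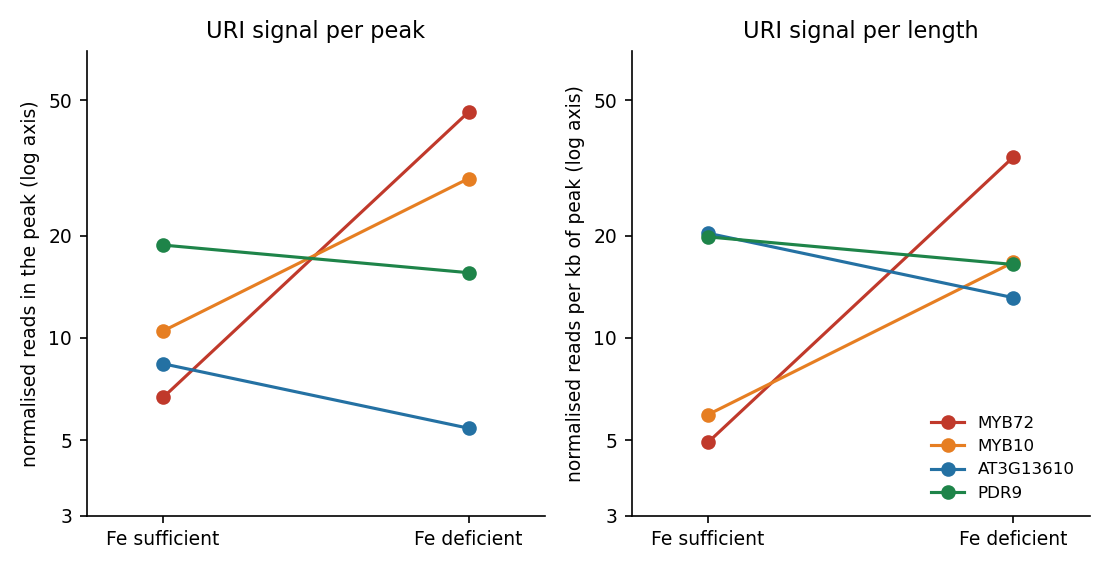
Mean URI signal at the 4 peaks with sufficient and deficient Fe, as normalised reads in the peak (left) and per kb of peak (right), on log axes; each point is the mean of the 3 libraries of a condition, without error bars because no value per library was used. The lines of MYB72 (from 6.68 to 46.2 reads) and MYB10 (from 10.5 to 29.4) go up and cross that of PDR9 in both panels; that of MYB72 also crosses AT3G13610 in both, and that of MYB10 does so only per kb.

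The MYB72 peak had 1 of the largest changes of the whole table and missed the threshold of significance. Its mean went from 6.68 reads under sufficiency to 46.2 under deficiency, a 6.92-fold difference. The change of 2.79 (log2, deficiency minus sufficiency) in the authors' deposited table had a p-value of 0.00163 and a false discovery rate (FDR) of 0.0689, above the threshold of 0.05. By size it ranked 4 among the 2366 changes of the authors' deposited table. It was larger than 24 of the 26 increases that passed the FDR of 0.05 there.

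MYB72 stood apart from peaks of similar strength both in the size of its change and in the error implied by its p-value. Of the 100 peaks nearest in mean concentration, whose median change was -0.39 (log2), 0 had a larger change than MYB72. Back-calculated from the deposited p-value on the assumption of normality, the implied standard error was 0.89 (log2), which gives a 95% interval of 1.05 to 4.53 around the change. Implied errors were compared only with those of peaks whose change was at least 0.2 in size. Over the 100 such peaks nearest in mean concentration the median implied error was 0.37, and 0 of the 100 had a larger one than MYB72. Of the 206 such peaks at least as strong as MYB72, itself included, 4 had a larger one. The 100 peaks nearest to MYB72 in the level under sufficiency, which was low, had a median implied error of 0.67, and 8 of them had a larger one than MYB72. The peak nearest to MYB72 in its 2 condition means was that of NRAMP4, a vacuolar metal exporter, at 8.63 reads under sufficiency and 50.9 under deficiency. In the authors' deposited table NRAMP4 had a slightly smaller change than MYB72, 2.56, but an FDR of 2.94e-06. The implied error for NRAMP4 was 0.46. An implied error is worked out from the change and its p-value alone. For 2 changes of like size it therefore restates the gap in p-value and is not a measured spread. Whether the tested effect equals the deposited fold is not given, and why these 2 genes differ in FDR was not tested. The values per library behind the MYB72 error were not analysed here.

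**Figure D2:**
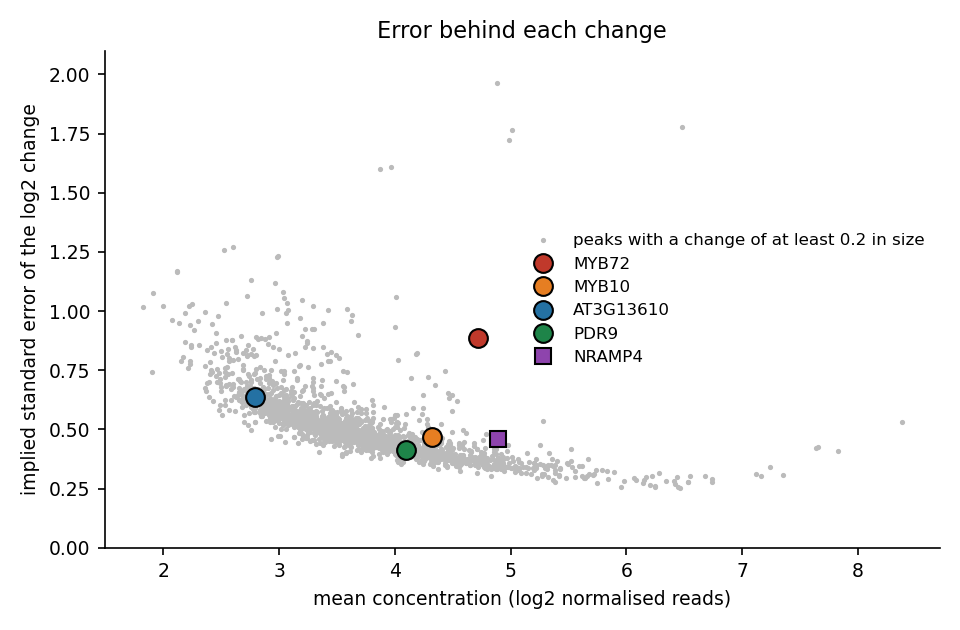
Standard error of the log2 change implied by each deposited p-value, against the mean concentration of the peak (log2 normalised reads), for the 2020 peaks with a change of at least 0.2 in size. MYB72 (0.89) sits above the band of peaks of like concentration, whereas MYB10 (0.47), PDR9 (0.41) and AT3G13610 (0.64) lie in or near the band of the other peaks.

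The MYB10 peak was higher under Fe deficiency by a smaller factor and with a smaller implied error than MYB72. Its mean went from 10.5 reads under sufficiency to 29.4 under deficiency, a 2.81-fold difference. In the authors' deposited table the change was 1.49 (log2) with a p-value of 0.00145 and an FDR of 0.0657, again just above the threshold of 0.05. The implied standard error was 0.47 (95% interval of 0.57 to 2.41). Over the 100 peaks nearest in mean concentration the median was 0.41, and 7 of them had a larger error than MYB10. Of the 100 peaks nearest in the level under sufficiency, with a median of 0.56, 94 had a larger one. None of the 100 peaks nearest in mean concentration had a larger change than MYB10. Most of the increases that passed the FDR of 0.05 were larger, since 5 of the 26 were smaller than that of MYB10.

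Neither regulator peak passed the FDR of 0.05, so of the 4 members 0 were called in the authors' deposited table. Among the 1311 peaks with an adjusted FDR there, 26 were called higher under deficiency (1.98%) and 1 lower (0.0763%). By unadjusted p 2 of the 4 members, both regulators, were under 0.05, as were 84 of all 2366 peaks in that direction (3.55%). Ordered by p-value in the authors' deposited table, MYB10 ranked 31 and MYB72 ranked 33, while the last called peak, at AT1G13610, ranked 28 with an FDR of 0.0371. At an FDR of 0.1 both regulators were called, along with 2.59% of the adjusted peaks in that direction.

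At the enzyme and exporter genes the signal was slightly lower under Fe deficiency, and neither difference passed the test. PDR9 had 18.8 reads under sufficiency and 15.6 under deficiency. Its change in the authors' deposited table was -0.27 (log2, FDR 0.653), with an implied 95% interval of -1.08 to 0.54. That interval leaves room for anything between a fall to 0.474 of the sufficient level and a rise to 1.45 times it. In reads per peak, which go with width, the narrow AT3G13610 peak was among the weakest, at 8.40 reads under sufficiency and 5.43 under deficiency. Under deficiency 144 of the 2366 peaks had fewer reads than AT3G13610. Per kb AT3G13610 was not among the weakest, as 1385 peaks were lower under sufficiency and 928 under deficiency. Its change in the authors' deposited table was -0.64 (log2, p = 0.315), and its FDR was set to 1 there, as for all 1055 peaks left out of the adjustment. The implied 95% interval for AT3G13610 was -1.89 to 0.61. The implied errors of PDR9 (0.41) and AT3G13610 (0.64) were close to those of the 100 peaks nearest to each in mean concentration, with medians of 0.42 and 0.64.

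The typical peak was also lower under deficiency, which bears on the sign at PDR9. The median change of all 2366 peaks was -0.46 (log2), and 79.8% of them were lower. Relative to this median, the changes were 3.25 for MYB72, 1.95 for MYB10, -0.18 for AT3G13610 and 0.19 for PDR9, so the sign of PDR9 turned. Both regulators then passed, with an FDR of 0.00707 for MYB72 and 0.00139 for MYB10 from the implied errors. Of the 1311 adjusted peaks, 63 then passed as higher (4.81%) and 0 as lower. Recentring takes the median change as no change. Whether the general fall was technical or a real fall in URI signal was not tested, and the normalisation is not given. These FDR values therefore hold only under that assumption.

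**Figure D3:**
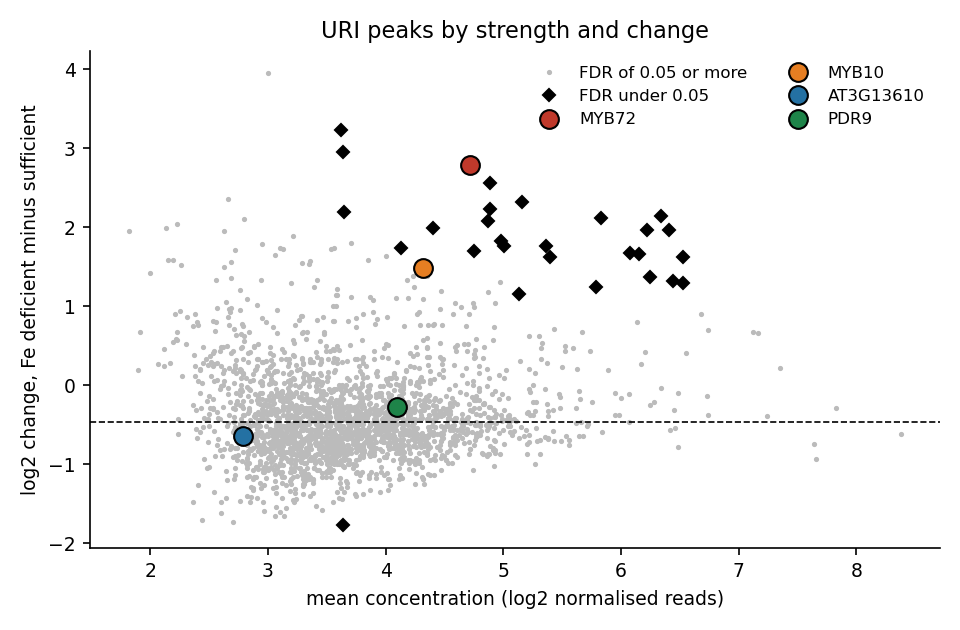
Log2 change between Fe deficiency and sufficiency against mean concentration (log2 normalised reads) for all 2366 peaks, with the 27 peaks of a deposited FDR under 0.05 as diamonds, the 4 members as large circles and the median change of -0.46 as a dashed line. MYB72 (2.79) and MYB10 (1.49) lie above nearly all peaks of like concentration, and PDR9 (-0.27) and AT3G13610 (-0.64) lie within the main cloud.

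The changes at the regulator peaks exceeded those at the enzyme and exporter peaks in all 4 pairings. The enzyme peak is the one that overlapped AT3G13600 rather than AT3G13610. The difference in log2 change was 3.43 between MYB72 and AT3G13610 (approximate 95% interval of 1.29 to 5.57) and 3.06 between MYB72 and PDR9 (1.15 to 4.97). For MYB10 it was 2.13 against AT3G13610 (0.58 to 3.68) and 1.76 against PDR9 (0.54 to 2.98). These 4 intervals lay above 0. Within each kind of gene the intervals included 0, with a difference of 1.3 between MYB72 and MYB10 (-0.66 to 3.26) and of -0.37 between AT3G13610 and PDR9 (-1.86 to 1.12). The 2 pairs within a kind are thus not shown to differ, and the width of their intervals does not show them to be alike. The 6 intervals rest on implied errors and treat peaks as independent, although all peaks come from the same libraries, and they are not adjusted for the number of pairs. They also take no account of selection. The members were chosen with earlier results of these data known, and a region weak with sufficient Fe could have entered the table through the deficient libraries. The intervals are therefore description and not a test.

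Further genes of the pathway and relatives of the members had 7 peaks within 1500 bp, none of which passed the test. A peak lay within 1500 bp of 8 of these 35 genes (22.9%, against 11.8% of all protein-coding genes), namely 4 of 12 genes of phenylpropanoid supply, 1 of 4 genes of coumarin glucosidases and their relatives, 0 of 4 genes of coumarin synthesis, 2 of 10 relatives of PDR9, 1 of 2 relatives of the MYB genes and 0 of 3 genes related to MYB72 and MYB10 by function. The lists were chosen with earlier results of these data known, and 4CL2 and 4CL5 share 1 peak. The 2 shares were not tested against each other and do not show enrichment. The genes of synthesis without a peak were F6'H2 (AT1G55290), AT1G28680, AT3G12900 and CYP82C4, a cytochrome P450 gene. BGLU42, which encodes a beta-glucosidase acting downstream of MYB72 in coumarin release, had no peak within 1500 bp, nor did BGLU21 and BGLU22. FIT, the bHLH factor on which induction of MYB72 by low Fe depends, had none either. The nicotianamine synthase genes NAS2 and NAS4, of which NAS4 is a known target of MYB72 and MYB10, likewise had none. A peak within 3000 bp of NAS4, by contrast, had a change of 1.68 (FDR 7.58e-07) in the authors' deposited table.

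All 7 peaks within 1500 bp of these further genes were lower under Fe deficiency, as were the peaks of AT3G13610 and PDR9, against 79.8% of all peaks. With a window of 3000 bp this did not hold, since the peak near NAS4 was higher and passed the FDR of 0.05. The median change of the 7 peaks was -0.62 (log2), beside -0.46 for all peaks. Relative to the median of all peaks 6 of the 7 were lower and 1 higher. Of the 7 peaks, 0 passed the FDR of the authors' deposited table at 0.05, but only 5 could have passed, since those at 4CL1 and at 4CL2 and 4CL5 were left out of its adjustment. An unadjusted p under 0.05 was found at 2 of the 7, as at 238 of all 2366 peaks in that direction (10.1%).

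In the supply of feruloyl-CoA, the largest value was at 4CL1 (AT1G51680), a 4-coumarate:CoA ligase. Its peak had 12.9 reads with sufficient Fe and 4.26 under deficiency, a change of -1.60 (log2, p = 0.0158, FDR set to 1) in the authors' deposited table. One peak shared by the ligase genes 4CL2 and 4CL5 had a change of -0.39 (p = 0.453), and that near C4H, the cinnamate hydroxylase gene, one of -0.49 (FDR 0.449), in the authors' deposited table. The peak given for C4H did not overlap it and had its midpoint nearest to AT2G30500. PAL1 to PAL4, which encode the entry enzyme phenylalanine ammonia-lyase, had no peak within 1500 bp, nor did 4CL3, HCT, CYP98A3 and CCoAOMT1.

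PYK10 (BGLU23, AT3G09260), an abundant root beta-glucosidase, had 25.3 reads under sufficiency and 15.03 under deficiency. The change at PYK10 in the authors' deposited table was -0.76 (p = 0.0424, FDR 0.268). Among relatives of PDR9, the transporter genes PDR7 (ABCG35) and PDR8 (PEN3) had changes of -0.62 (FDR 0.370) and -0.61 (FDR 0.394) in the authors' deposited table, and PDR2 to PDR6 and PDR11 to PDR13 had no peak within 1500 bp. MYB63, a relative of MYB72 known as an activator of lignin genes, had 20.5 reads with sufficient Fe and 12.4 under deficiency, a change of -0.73 (FDR 0.348) in the authors' deposited table. The value of MYB63 thus had the opposite sign to those of MYB72 and MYB10, a difference that was not tested, while MYB58 had no peak within 1500 bp.

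**Figure D4:**
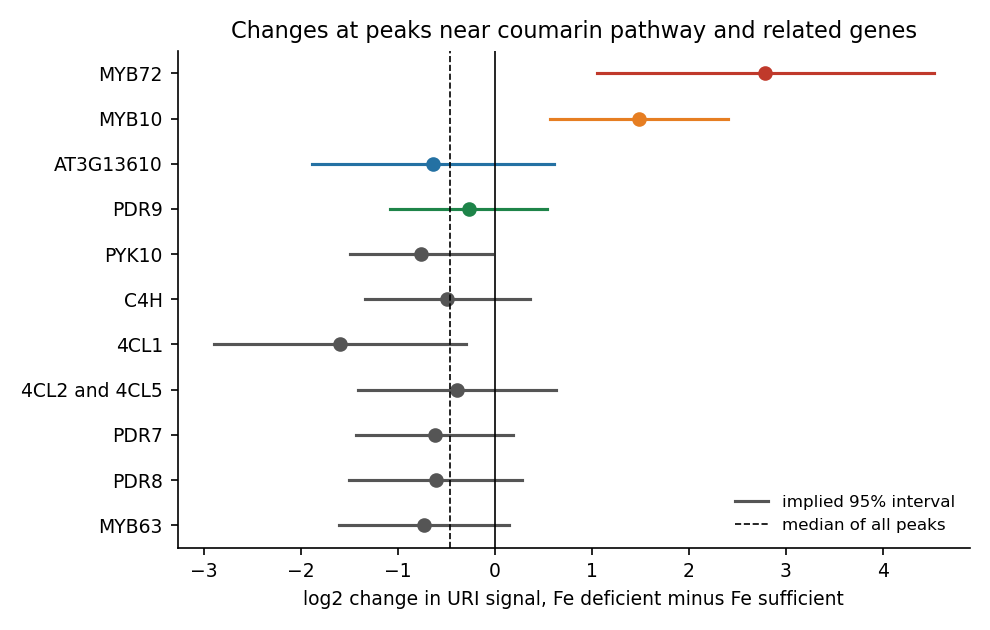
Log2 change in URI signal, Fe deficiency minus sufficiency, at the 4 members and the 7 peaks of further genes, with lines for the 95% interval implied by each deposited p-value, a solid line at 0 and a dashed line at the median of all peaks (-0.46). The intervals of MYB72 (1.05 to 4.53) and MYB10 (0.57 to 2.41) lie above 0. Those of 4CL1 (-2.90 to -0.30) and PYK10 (-1.49 to -0.03) lie below 0, and those of all other peaks include 0.

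Likeness was measured as the distance between peaks over the 2 condition concentrations (log2), which are 2 group means, and the 3 nearest peaks of each member were named by their nearest gene. Besides NRAMP4 (distance 0.40), MYB72 was nearest to AT3G01345 (0.57) and IGMT5 (0.64), and all 3 of these passed the FDR of 0.05, with values of 2.94e-06, 0.000708 and 7.58e-07 in the authors' deposited table. MYB10 was nearest to BAM7 (0.11), ATHB2 (0.12) and AT1G70180 (0.17), whose FDR values in the authors' deposited table were 0.268, 0.121 and 0.142. AT3G13610 was nearest to AT1G05805 (0.022), AT1G66920 (0.032) and AT2G21780 (0.054). PDR9 was nearest to PPOX (0.014), PUP18 (0.036) and CYP707A3 (0.042). The changes of these 6 peaks in the authors' deposited table were between -0.62 and -0.26. The 3 nearest to PDR9 did not pass the FDR of 0.05, and the 3 nearest to AT3G13610 were left out of the adjustment.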

How the data were processed

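The authors deposited 1 table of 2366 peaks with log2 concentrations, averaged per Fe condition, a log2 fold, a p-value and an FDR. The submitters' processing notes name the build TAIR10 and the tools DiffBind, MACS2, Bowtie (version 1.2.2) and Trimmomatic (version 0.33), beside SAMtools, Picard and bedtools. Settings, normalisation, use of the IgG libraries, pooling for peak calling and the test behind the p-value: not given in the sources used here. Depth per library is unknown. The scale was read from the values: the fold is the sufficient minus the deficient concentration to within 0.01, so its sign was turned here. Reads are 2 to the power of a concentration. A Benjamini-Hochberg adjustment of the p-values of 1311 peaks gave the deposited FDR within 0.489%.

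Libraries were grouped by title. Genes came from an NCBI RefSeq table (TAIR10.1), used for names and neighbours, and all 39 list genes were matched. An overlap of at least 1 bp counted. Standard errors were implied from deposited p-values (normal approximation). Comparisons of implied errors between peaks used only peaks with a change of at least 0.2 in size, a limit not set for comparisons of changes. For recentred p-values, changes under 0.2 took the median error of the 100 peaks nearest in concentration. The calculations were tested on simulated data, with Python 3.11.15, numpy 2.4.6, pandas 2.3.3 and scipy 1.17.1. Alternatives covered windows, thresholds, adjustment, centring, errors and a pseudocount of 1 read. Members and lists were chosen with earlier results of these data known. Named genes were all members, all list genes, the genes flanking member peaks and the 3 peaks most like each member. AT1G13610 and the wider NAS4 window were chosen after their values were seen.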

Additional observations from a re-analysis of the deposited data

How the results depend on the processing

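Of 46 alternative values over 19 results, 28 kept their direction and their side of the threshold or a similar size. With a window of 1000 bp, or only where a peak overlapped the gene, 2 of the 4 genes had a peak (MYB10 and PDR9), in place of 4. Where the midpoint of the peak had to lie within 1500 bp, 3 had one (MYB10, AT3G13610 and PDR9) and MYB72 did not. An FDR of 0.1 called 2 members, and recentring on the median peak also called 2 (MYB72 and MYB10), in place of 0; adjusting over all 2366 peaks called 0, with an FDR of 0.117 for MYB72 and 0.111 for MYB10. Relative to the median of all peaks, of the adjusted peaks and of the 100 peaks nearest in concentration, the changes were 3.25, 3.26 and 3.17 for MYB72 and 1.95, 1.96 and 1.92 for MYB10, all past the FDR of 0.05, while PDR9 turned to 0.19, 0.20 and 0.23 without passing. With the median error of the 100 peaks nearest in concentration, the interval of the 1.3 difference between MYB72 and MYB10 no longer included 0 (0.22 to 2.38). The summed signal of the regulators over that of the enzyme and exporter was 0.632 with sufficient Fe and 3.60 under deficiency in reads, and 0.271 and 1.72 per kb. Of the 35 further genes, 3 had a peak that overlapped the gene and 0 had a peak within 1500 bp with an FDR under 0.05, in place of 8. With a window of 1000 bp 6 of them had a peak, and with 3000 bp 10. The wider window took in the peak near NAS4, which was higher under deficiency and passed the FDR of 0.05.

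The table holds group means, so leaving out replicates was not run. No paired analysis was possible because the table has no value per library. The motif alternative was not run because no sequence was used here. Precision is limited by an unknown depth and by low reads at AT3G13610 in both conditions and at MYB72 with sufficient Fe.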
